A study of Mus musculus with 9 samples.

Results

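The 10 genes described here encode periostin, the leucine-rich proteoglycans of soft and mineralized connective tissue, and the tendon proteins scleraxis and tenomodulin. They were found in the count table by symbol (*Postn*, *Aspn*, *Dcn*, *Bgn*, *Fmod*, *Lum*, *Omd*, *Ogn*, *Scx* and *Tnmd*), and all 10 were present among its 27179 genes. RNA was measured in mandibles of 6-month-old C57BL/6 male mice. The groups were WT controls (n = 5) and mice with the genotype label FcgRIIB-/- (n = 4), a deletion of the inhibitory Fc receptor that is used as a model of lupus with mandibular bone loss. The question put to the data was which genes differ between the mandibles of these genotypes. Whole mandibles were pulverized with their teeth, so bone, marrow, periodontal ligament, dental tissue and attached soft tissue were sequenced together. In such bulk samples, fewer cells of a type and less RNA per cell cannot be told apart. Each library is taken as 1 mouse, and p-values set the difference between the groups against the spread between these libraries.

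The periodontal ligament is the fibrous tissue that anchors the root of a tooth in the socket of the alveolar bone, and its main component is fibrillar collagen. Periostin is a matricellular protein of the ligament and the periosteum that binds collagen and integrins and promotes collagen crosslinking. Small leucine-rich proteoglycans bind collagen fibrils through curved leucine-rich repeats, set the spacing and thickness of the fibrils, and bind growth factors such as TGF-beta. Asporin, decorin and biglycan form class I of this family, fibromodulin, lumican and osteomodulin belong to class II, and osteoglycin belongs to class III. Scleraxis is a transcription factor of tendon and ligament cells, and tenomodulin is a membrane glycoprotein of mature tendon and ligament cells.

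Several of the proteoglycan genes are neighbours. *Aspn* (chr13:49544443-49567565), *Omd* (chr13:49582462-49592612) and *Ogn* (chr13:49608015-49624501) lie on the plus strand of chromosome 13 (RefSeq annotation of GRCm38.p6), with 14.9 kb between *Aspn* and *Omd* and 15.4 kb between *Omd* and *Ogn*. *Dcn* (chr10:97479500-97518163) and *Lum* (chr10:97565501-97572703) lie 47.3 kb apart on chromosome 10. *Fmod* (chr1:134037254-134048280), *Postn* (chr3:54359267-54391041), *Scx* (chr15:76457411-76459468), *Bgn* (chrX:73483601-73495936) and *Tnmd* (chrX:133851008-133865577) are on other chromosomes, and all 10 genes are on the plus strand. RefSeq promoter entries matched 7 of the 10 genes. *Dcn*, *Lum* and *Scx* had no entry. The 150 bases before the annotated start are printed for the 3 chromosome 13 neighbours, because these genes were lower together, and for the second start of *Postn*, the member with the largest difference. Capitals mark the E-box that factors such as scleraxis bind, spelled CANNTG. They also mark the sequence TATAAA, which positions the start of transcription at many genes. Both were searched on both strands.
Aspn, chr13:49544293-49544442: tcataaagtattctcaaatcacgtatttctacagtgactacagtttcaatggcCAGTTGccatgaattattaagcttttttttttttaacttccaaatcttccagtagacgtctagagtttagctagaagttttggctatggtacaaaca
Omd, chr13:49582312-49582461: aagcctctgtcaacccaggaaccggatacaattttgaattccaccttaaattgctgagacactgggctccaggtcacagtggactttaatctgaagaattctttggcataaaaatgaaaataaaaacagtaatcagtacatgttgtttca
Ogn, chr13:49607865-49608014: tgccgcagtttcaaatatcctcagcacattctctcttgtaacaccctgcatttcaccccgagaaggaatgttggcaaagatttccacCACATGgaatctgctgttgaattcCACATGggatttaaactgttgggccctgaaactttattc
Postn second start, chr3:54360957-54361106: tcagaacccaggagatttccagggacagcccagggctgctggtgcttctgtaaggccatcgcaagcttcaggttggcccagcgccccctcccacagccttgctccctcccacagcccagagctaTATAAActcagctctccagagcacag
The *Aspn* window held 1 E-box (CAGTTG), the *Ogn* window held 2 (both CACATG), and the *Omd* window held neither motif. The second *Postn* start had a TATAAA that begins 26 bases before it, and the first start (chr3:54359117-54359266) had neither motif. No printed window held both motifs. Among the 7 genes with an entry, 3 (*Aspn*, *Ogn* and *Bgn*) had an E-box and 1 (*Postn*) had TATAAA. Of 32841 promoter windows taken the same way, as the 150 bases before an annotated start, 47.7% held CANNTG and 7.57% held TATAAA. These matches describe the letters of the windows only.

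Total counts lay between 24158960 and 26787359 in WT and between 21453880 and 28991631 in the libraries labelled FcgRIIB-/-. The targeted gene *Fcgr2b* was measured at 24.0 ± 8.28 CPM (SD, n = 5) in WT and 27.8 ± 2.90 CPM (SD, n = 4) in the libraries labelled FcgRIIB-/-, where CPM is the count scaled to the TMM-normalized library size. It was not lower there (log2 fold change 0.21, standard error 0.20, edgeR quasi-likelihood test with Benjamini-Hochberg adjustment, adjusted p = 0.442), so the groups are named by their labels, and FcgRIIB-/- with a replicate number means a library with that label. Which exons are deleted in this line is not given in the sources used here, so reads from outside the deleted part could remain, and the level of *Fcgr2b* does not check the labels. Many genes differed between the groups, and 33.3% of the 16329 genes tested passed an adjusted p of 0.05, 19.3% lower and 14% higher in the libraries labelled FcgRIIB-/-.

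Of the 10 members, all of which passed the filter on low counts, 6 were lower in the libraries labelled FcgRIIB-/- (*Postn*, *Aspn*, *Ogn*, *Omd*, *Tnmd* and *Dcn*), against 19.3% of all tested genes. By edgeR 0 members rose, against 14% of all tested genes, and by DESeq2 and limma voom 0 rose as well. By unadjusted p under 0.05, 7 members were lower and 0 higher. The share of all tested genes at that threshold was not computed. It is at least the 33.3% that passed the adjusted one in either direction. The fold change was negative in 9 of the 10, and its median over the members was -0.48 on the log2 scale, against 0.01 over all tested genes. In 5 members (*Postn*, *Aspn*, *Dcn*, *Ogn* and *Omd*) every library labelled FcgRIIB-/- was below every WT library, a separation that 17.5% of the tested genes had. *Fmod* was the only member with a fold change above 0 (0.03), and it was below 0 (-0.04) when the libraries were scaled by their totals alone. The members together took 1.29% to 2.06% of all counts in WT and 0.672% to 0.882% in the libraries labelled FcgRIIB-/-.

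**Figure D1:**
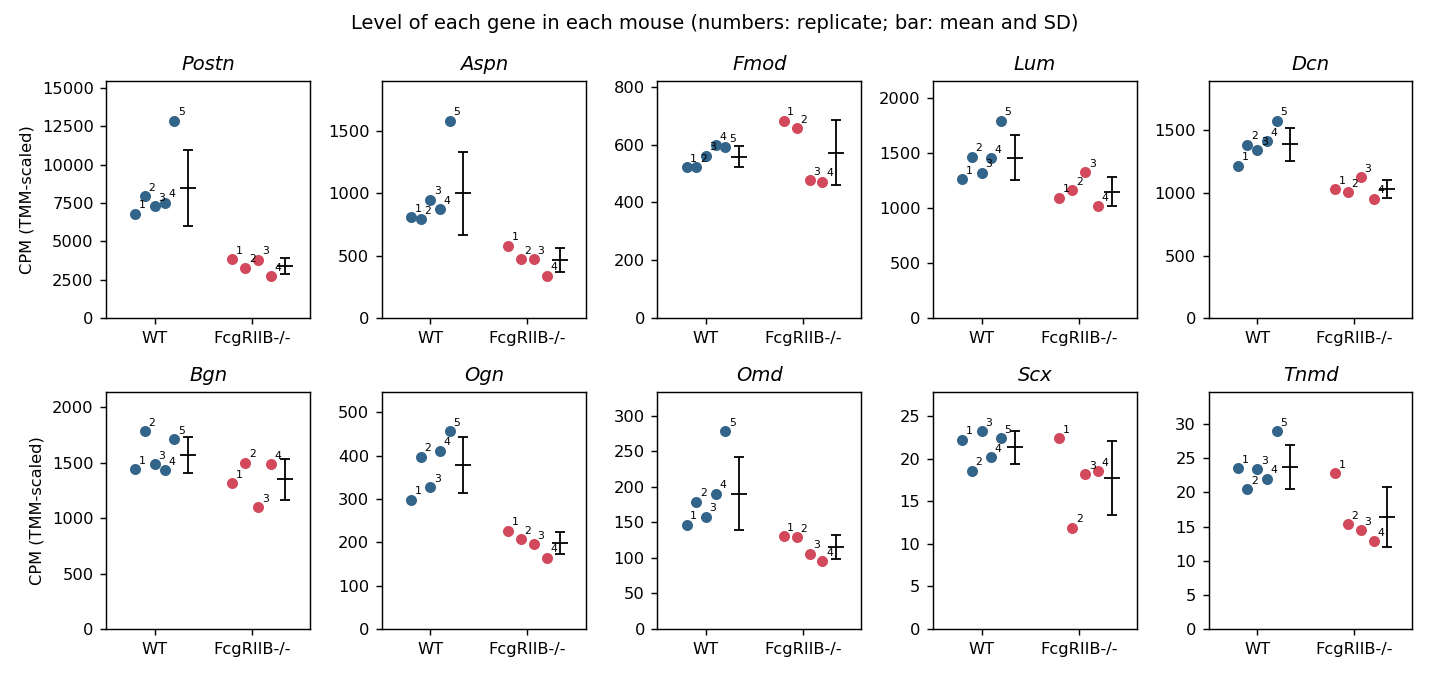
Level of each of the 10 genes in CPM (vertical axis, from 0) in each mouse, with WT in blue (n = 5) and the libraries labelled FcgRIIB-/- in red (n = 4), the replicate number beside each point, and bars for mean and SD. The red points lie wholly below the blue ones for *Postn*, *Aspn*, *Dcn*, *Ogn* and *Omd*, and overlap them for *Fmod*, *Lum*, *Bgn*, *Scx* and *Tnmd*.

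*Postn* (gene identifier 50706), periostin, was the most abundant member and the one with the largest difference. Its level was 6813, 7941, 7279, 7521 and 12874 CPM in WT replicates 1 to 5, and 3858, 3297, 3802 and 2745 CPM in FcgRIIB-/- replicates 1 to 4. WT replicate 5 stood above the other WT mice, and the groups did not overlap with or without it. The mean was 8486 ± 2487 CPM (SD, n = 5) in WT and 3426 ± 519.0 CPM (SD, n = 4) in the libraries labelled FcgRIIB-/-, which is 40.4% of the WT mean. The log2 fold change was -1.31 (standard error 0.21, 95% interval -1.77 to -0.85, edgeR adjusted p = 0.00159), and the two-sided exact permutation test of log2 CPM over every split of the mice gave p = 0.00794, the smallest this design allows. Only 5.02% of the tested genes had a fold change at or below that of *Postn*. *Postn* was the 7th most abundant gene of the WT mandible by CPM and took 0.702% to 1.27% of all WT counts, against 0.253% to 0.380% in the libraries labelled FcgRIIB-/-. Its counts lay between 54169 and 329786, so counting error is small beside the spread between mice.

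Among the class I proteoglycans, *Aspn* and *Dcn* fell and *Bgn* did not pass the test. *Aspn* (gene identifier 66695) encodes asporin, a protein of the periodontal ligament that binds BMP2 and restrains mineralization of the ligament. Its level was 806, 792, 946, 872 and 1581 CPM in WT replicates 1 to 5 and 580, 472, 472 and 339 CPM in FcgRIIB-/- replicates 1 to 4. WT replicate 5 was again the highest mouse, FcgRIIB-/- replicate 4 the lowest, and the groups did not overlap. The mean fell from 999.5 ± 330.8 CPM (SD, n = 5) to 466 ± 98.3 CPM (SD, n = 4), a log2 fold change of -1.10 (standard error 0.23, edgeR adjusted p = 0.00488), at or below which lay 6.25% of the tested genes. *Dcn* (gene identifier 13179) encodes decorin, which coats collagen I fibrils and binds TGF-beta. It was measured at 1220, 1386, 1343, 1415 and 1579 CPM in WT and at 1031, 1006, 1126 and 955 CPM in the libraries labelled FcgRIIB-/-. These groups did not overlap either, but they were much closer, with the mean of those labelled FcgRIIB-/- at 74.1% of the WT mean (log2 fold change -0.43, standard error 0.10, edgeR adjusted p = 0.00826). *Bgn* (gene identifier 12111) encodes biglycan, a proteoglycan of bone matrix that can also act on Toll-like receptors when it is released. Its level was 1442, 1785, 1489, 1435 and 1711 CPM in WT and 1314, 1500, 1101 and 1487 CPM in the libraries labelled FcgRIIB-/-, and the groups overlapped. The log2 fold change of *Bgn* was -0.22 with a 95% interval from -0.49 to 0.05 (edgeR adjusted p = 0.186), so neither no difference nor a fall of the size seen in *Dcn* is outside the interval. Without FcgRIIB-/- replicate 3 the log2 fold change of *Bgn* was -0.13.

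The class II members differed from each other in what was measured. *Omd* (gene identifier 27047) encodes osteomodulin, also called osteoadherin, a keratan sulfate proteoglycan of mineralized matrix that binds hydroxyapatite. It was measured at 147, 179, 158, 191 and 278 CPM in WT replicates 1 to 5 and at 131, 129, 106 and 95.8 CPM in FcgRIIB-/- replicates 1 to 4. The groups did not overlap, although FcgRIIB-/- replicate 1 came close to WT replicate 1. *Omd* fell by 0.73 on the log2 scale (standard error 0.18, edgeR adjusted p = 0.0119; two-sided exact permutation p = 0.0159). *Lum* (gene identifier 17022) encodes lumican, which regulates collagen fibril assembly in the cornea and other tissues. Its level was 1262, 1468, 1323, 1456 and 1797 CPM in WT and 1095, 1163, 1326 and 1021 CPM in the libraries labelled FcgRIIB-/-. FcgRIIB-/- replicate 3 lay within the WT range, and the other 3 mice lay below it. The log2 fold change of *Lum* was -0.34 (standard error 0.12, 95% interval -0.62 to -0.07) and missed the threshold narrowly (edgeR adjusted p = 0.0548), whereas the unadjusted exact permutation test gave p = 0.0397. With DESeq2 the adjusted p of *Lum* was 0.0261, and over all alternatives it ranged from 0.0261 to 0.245. *Fmod* (gene identifier 14264) encodes fibromodulin, a collagen-binding proteoglycan abundant in tendon and ligament. It was measured at 522, 521, 561, 598 and 591 CPM in WT and at 683, 656, 476 and 472 CPM in the libraries labelled FcgRIIB-/-. The mice labelled FcgRIIB-/- lay on both sides of the WT range, replicates 1 and 2 above it and replicates 3 and 4 below. The means were 559 ± 36.8 CPM (SD, n = 5) and 572 ± 113 CPM (SD, n = 4), and the log2 fold change was 0.03 with a 95% interval from -0.25 to 0.31 (edgeR adjusted p = 0.858). It turned negative without FcgRIIB-/- replicate 1 or 2.

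*Ogn* (gene identifier 18295), the class III member, encodes osteoglycin or mimecan, a proteoglycan of bone and connective tissue that is also processed to a small secreted form. Its level was 298, 398, 327, 411 and 456 CPM in WT and 227, 206, 196 and 164 CPM in the libraries labelled FcgRIIB-/-. All mice labelled FcgRIIB-/- were below all WT mice. The mean fell from 378 ± 64.3 CPM (SD, n = 5) to 198 ± 26.1 CPM (SD, n = 4), a log2 fold change of -0.93 (standard error 0.14), with the lowest adjusted p of the 10 members (edgeR, 0.00121).

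The tendon genes were far less abundant. *Scx* (gene identifier 20289) was measured at 22.2, 18.6, 23.2, 20.2 and 22.4 CPM in WT and at 22.4, 11.9, 18.2 and 18.5 CPM in the libraries labelled FcgRIIB-/-, from 257 to 640 counts per mouse. FcgRIIB-/- replicates 3 and 4 were just under the lowest WT mouse, and replicate 2 was well under it. The log2 fold change of *Scx* was -0.26 with a 95% interval from -0.60 to 0.08 (edgeR adjusted p = 0.215). It was -0.11 without FcgRIIB-/- replicate 2 and -0.40 without replicate 1, and passed in neither case. *Tnmd* (gene identifier 64103), whose expression in tendon depends on scleraxis, was measured at 23.6, 20.5, 23.4, 22.0 and 28.97 CPM in WT and at 22.8, 15.3, 14.5 and 12.9 CPM in the libraries labelled FcgRIIB-/-. FcgRIIB-/- replicate 1 lay among the WT mice and the other 3 lay below all of them. *Tnmd* fell by 0.53 on the log2 scale (standard error 0.16, edgeR adjusted p = 0.0310), but this call was lost when any 1 of WT replicates 1, 3, 4 and 5 or FcgRIIB-/- replicates 2, 3 and 4 was left out, with adjusted p between 0.0534 and 0.0814 in those fits.

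**Figure D2:**
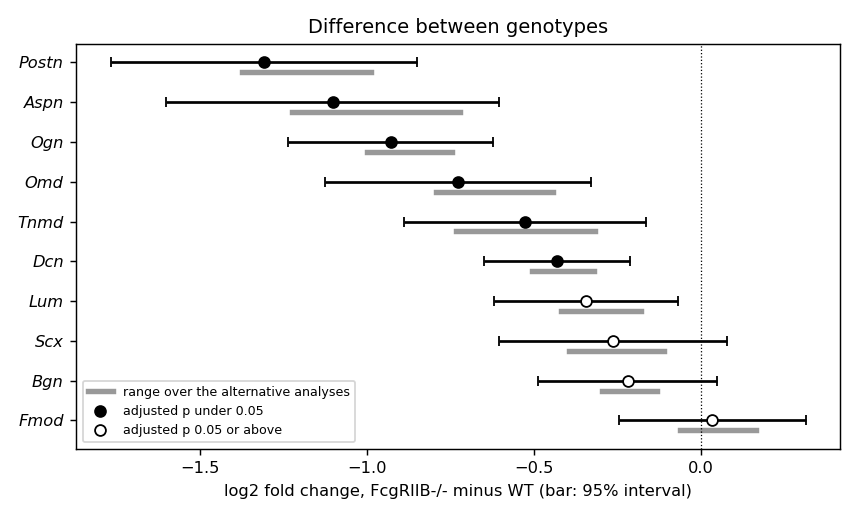
Log2 fold change of each gene (horizontal axis, FcgRIIB-/- minus WT; points), with 95% intervals (black) and the range over the alternative analyses (grey); filled points passed an adjusted p of 0.05 in edgeR. *Postn* (-1.31), *Aspn* (-1.10), *Ogn* (-0.93) and *Omd* (-0.73) lie farthest from 0, and the grey range of *Fmod* (-0.06 to 0.16) spans 0.

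The same mice were at the ends of the range for most members. WT replicate 5 was the highest mouse for 7 of the 10 members, FcgRIIB-/- replicate 4 the lowest for 8, and FcgRIIB-/- replicate 1 the highest of its group for 7. The shares of all tested genes with these mice at the ends were not computed, so the counts cannot be read as particular to the members. With WT replicate 5 and FcgRIIB-/- replicate 4 both left out, an analysis chosen after these values were seen, 5 members remained lower and 0 higher. *Postn*, *Aspn*, *Dcn*, *Ogn* and *Omd* still passed there, with log2 fold changes of -0.99, -0.72, -0.32, -0.74 and -0.44. Those of *Aspn* and *Omd* had shrunk by more than 1.5 times, and *Tnmd* no longer passed (-0.32, edgeR adjusted p = 0.164).

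Per kilobase of the principal transcript, the WT levels ran from *Postn* (2661 CPM per kb) through *Dcn* (790 CPM per kb), *Bgn* (650 CPM per kb), *Lum* (597 CPM per kb), *Aspn* (429 CPM per kb), *Fmod* (179 CPM per kb), *Ogn* (147 CPM per kb) and *Omd* (84.8 CPM per kb) to *Scx* (20.6 CPM per kb) and *Tnmd* (17.5 CPM per kb). The steps from *Postn* to *Dcn*, from *Aspn* to *Fmod* and from *Omd* to *Scx* were wider than the spread between WT mice. The other neighbours in this order overlapped. By this length the order of the group means was the same in the libraries labelled FcgRIIB-/-. By CPM it was not. Mean *Aspn* was above *Fmod* in WT (999.5 against 559 CPM) but below it in the libraries labelled FcgRIIB-/- (466 against 572 CPM). *Tnmd* was likewise above *Scx* in WT (23.7 against 21.3 CPM) and below it there (16.4 against 17.7 CPM). With all annotated exons as the length, *Lum* and *Aspn* came before *Bgn* and *Dcn* in WT, so the order within this abundant group depends on the length used. The order by that length in the libraries labelled FcgRIIB-/- was not computed.

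The gene neighbourhoods were examined next. On chromosome 13, all 4 proteoglycan genes of the cluster fell, namely *Ecm2* (log2 fold change -0.68, standard error 0.15, edgeR adjusted p = 0.00698), *Aspn*, *Omd* and *Ogn*. The nearest tested genes outside the cluster, chosen by position after the members' values were known, were *Ippk* 40.2 kb away on the *Ecm2* side (-0.18, edgeR adjusted p = 0.168) and *Nol8* 28.6 kb away on the *Ogn* side (0.14, edgeR adjusted p = 0.247). *Cenpp*, a centromere protein gene, spans *Aspn*, *Omd* and *Ogn* on the opposite strand, and its span also holds *Ecm2*. *Cenpp* was lower too, at 3.14 ± 0.529 CPM (SD, n = 5) in WT and 1.76 ± 0.280 CPM (SD, n = 4) in the libraries labelled FcgRIIB-/- (log2 fold change -0.83, edgeR adjusted p = 0.00818). It shares 7 exonic bases with *Aspn*, which is 0.297% of the exonic bases of *Aspn*, and 0 with *Omd* and *Ogn*. Bases shared with *Ecm2* were not computed. The strand setting of the counting is not given in the sources used here, so reads of *Cenpp* and the genes inside it cannot be told apart where they overlap, but far fewer reads were counted for *Cenpp*. *Scx* lies within *Bop1* on the opposite strand and shares 0 exonic bases with it, and *Bop1* did not pass the test (log2 fold change 0.12, edgeR adjusted p = 0.304).

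On chromosome 10, *Dcn* fell, and *Lum* (-0.34), *Kera* (-0.16, edgeR adjusted p = 0.673) and *Epyc* (-0.71, standard error 0.44, edgeR adjusted p = 0.229) did not pass, the last of these at under 1 CPM in every mouse. On chromosome 1, neither *Fmod* nor *Prelp* (-0.30, edgeR adjusted p = 0.0613) passed, and *Optc*, with at most 15 counts in any mouse, was not tested. *Atp2b4*, a calcium pump gene 96.1 kb outside that cluster, was lower (-0.54, edgeR adjusted p = 0.00502). The chromosome 13 cluster was therefore the only 1 of the 3 in which every tested gene passed. Differences between the clusters were not tested.

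**Figure D3:**
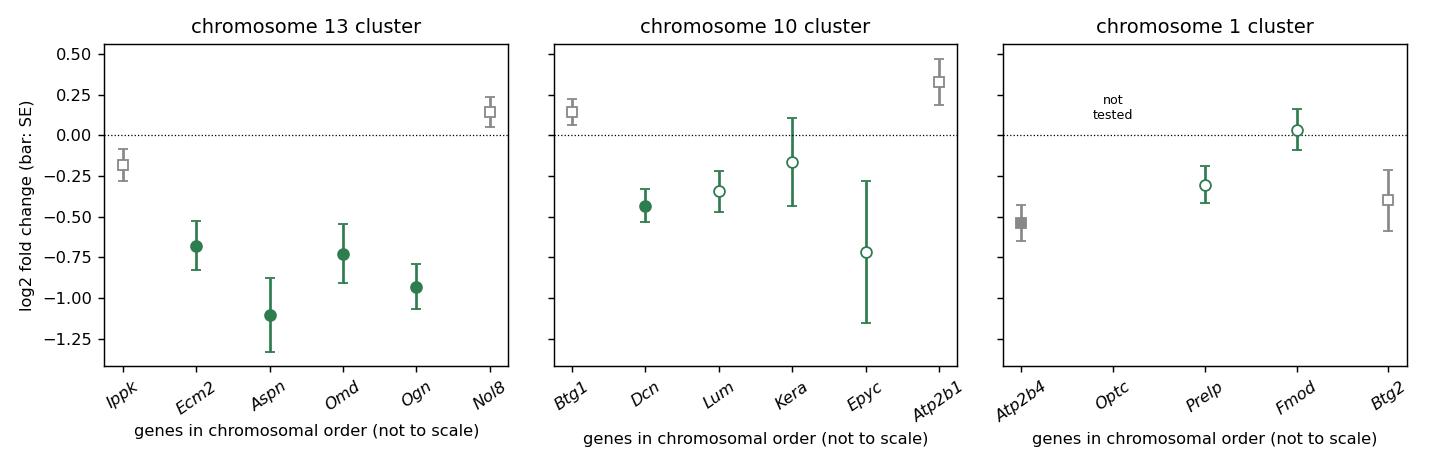
Log2 fold change (vertical axis, FcgRIIB-/- minus WT, bars are standard errors) of the proteoglycan genes of each cluster (green circles) and the nearest tested genes on either side (grey squares), in chromosomal order; filled symbols passed an adjusted p of 0.05 in edgeR. The 4 chromosome 13 genes lie between -1.10 and -0.68, while *Ippk* (-0.18) and *Nol8* (0.14) beside them are nearer to 0. *Cenpp*, which spans these 4 genes and was lower too (-0.83), is not shown.

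Ratios of counts within a library do not depend on how libraries are scaled, and 8 pairs of members were compared this way with a two-sided exact permutation test of the log2 ratio, adjusted over the 8 pairs. The smallest exact p of this design is 0.00794, which for a single separated pair among 8 becomes an adjusted p of 0.0635, so 1 pair alone could not pass 0.05 after adjustment. None of the 8 passed, and by unadjusted p under 0.05 only *Postn* to *Bgn* differed. The *Postn* to *Bgn* ratio was 4.72, 4.45, 4.89, 5.24 and 7.53 in WT and 2.93, 2.20, 3.46 and 1.85 in the libraries labelled FcgRIIB-/-, with no overlap (difference of -1.06 on the log2 scale, exact permutation p = 0.00794, adjusted p = 0.0635). *Fmod* to *Lum* had a median of 0.411 in WT and 0.514 in the libraries labelled FcgRIIB-/- and overlapped (exact permutation p = 0.0873, adjusted p = 0.175). For neighbours, the *Dcn* to *Lum* ratio was nearly level, from 0.879 to 1.02 in WT and from 0.850 to 0.942 in the libraries labelled FcgRIIB-/- (difference -0.09, exact permutation p = 0.119, adjusted p = 0.190). *Aspn* to *Ogn* lay between 1.99 and 3.47 in WT and between 2.07 and 2.55 in the libraries labelled FcgRIIB-/- (difference -0.15, exact permutation p = 0.413, adjusted p = 0.413). *Aspn* to *Omd* and *Ogn* to *Omd* were lower by 0.38 and 0.22 on the log2 scale, each with an exact permutation p of 0.0556 and an adjusted p of 0.148. The differences of *Dcn* to *Bgn* (-0.20) and *Scx* to *Tnmd* (0.26) both had an exact permutation p adjusted to 0.254.

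**Figure D4:**
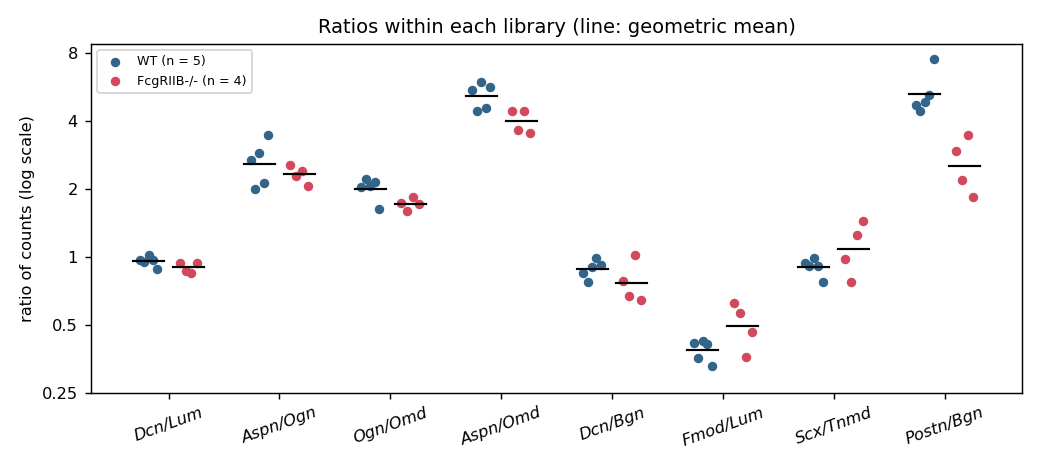
Ratio of the counts of 2 members within each library (vertical axis, log scale) for 8 pairs, with WT in blue (n = 5), libraries labelled FcgRIIB-/- in red (n = 4) and lines at the geometric means. The groups separate only for *Postn* to *Bgn*, where WT runs from 4.45 to 7.53 and FcgRIIB-/- from 1.85 to 3.46.

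The genes that work with the members were read as lists, each beside the 19.3% of all tested genes that were lower and the 14% that were higher. Of 10 other tested small leucine-rich proteoglycan genes, 2 fell, *Ecm2* and *Podnl1* (-0.31, edgeR adjusted p = 0.0230), and 0 rose. The median fold change of this list was -0.28. Of 16 tendon and ligament genes, 4 fell and 1 rose, with a median of -0.08. *Thbs2*, a matricellular thrombospondin, fell by 1.15 on the log2 scale (edgeR adjusted p = 9.53e-05), and *Fbn1*, which encodes the microfibril protein fibrillin-1, fell by 0.60 (edgeR adjusted p = 0.00136). *Prg4*, lubricin, rose by 1.29 (edgeR adjusted p = 0.0204), although its groups overlapped.

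Collagen itself is what most of the members bind. Of 20 genes of collagen fibrils and their crosslinking, 10 fell and 2 rose, with a median of -0.29. *Col12a1*, a fibril-associated collagen of ligament and periosteum, fell by 1.41 on the log2 scale (edgeR adjusted p = 0.00104), and *Col3a1* fell by 0.98 (edgeR adjusted p = 0.00344). *Col1a1*, the most abundant gene of the list, did not pass (log2 fold change 0.06, edgeR adjusted p = 0.823). The lysyl hydroxylase genes *Plod2* and *Plod1* rose by 0.59 and 0.28 (edgeR adjusted p = 0.00235 and 0.00714). The glycosaminoglycan chains of decorin and biglycan are chondroitin or dermatan sulfate, and of 22 genes for the synthesis of these chains 6 fell and 1 rose, with a median of -0.18. *Xylt1*, which starts the chain, fell by 1.18 (edgeR adjusted p = 0.00461), *Chst3*, a sulfotransferase, fell by 1.08 (edgeR adjusted p = 0.00640), and *B3gat3* rose by 0.30 (edgeR adjusted p = 0.0212).

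Of 14 receptors and ligands that the members bind, 8 fell and 1 rose, with a median of -0.29. *Itgb3*, an integrin subunit that pairs with the alpha v chain in receptors for periostin and is abundant in osteoclasts and platelets, fell by 1.30 on the log2 scale (edgeR adjusted p = 9.53e-05). *Tlr4*, a receptor for released biglycan that is carried by myeloid cells, fell by 0.90 (edgeR adjusted p = 0.00204), and *Tgfb3* rose by 0.24 (edgeR adjusted p = 0.0401). Of these list counts, the falls among other proteoglycans went to 1 without WT replicate 3 and without FcgRIIB-/- replicates 1 or 3. Those among collagen genes lay between 6 and 8 with any 1 mouse left out, lowest without WT replicates 3 or 4. The falls among receptors and ligands then lay between 6 and 9, and those among chain synthesis genes between 5 and 7. Those among tendon genes lay between 2 and 4, lowest without FcgRIIB-/- replicate 2. The single rise among the receptors and ligands was lost without any 1 of the 4 mice labelled FcgRIIB-/-, that among chain synthesis genes without replicates 3 or 4, and that of *Prg4* without replicate 3. The rises among tendon genes went to 2 without WT replicate 5 or FcgRIIB-/- replicate 4, and those among collagen genes to 4 without FcgRIIB-/- replicate 4. With libraries scaled by their totals alone, the falls were 4 among other proteoglycans and 9 among chain synthesis genes, the rises of *B3gat3* and *Tgfb3* were lost, and 1 collagen gene rose. DESeq2 called 4 rises among collagen genes and 2 among chain synthesis genes.

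Markers of the cell types in a mandible were measured beside the members, and their part in the members' differences was not tested. The counts in these lists also stand beside the 19.3% of all tested genes that were lower and the 14% that were higher. The 2 of 10 fibroblast markers that were lower are near that share. Of 10 fibroblast markers, 2 were lower and 0 higher (median -0.14), and their summed level was 912 to 1085 CPM in WT and 788 to 893 CPM in the libraries labelled FcgRIIB-/-, with WT replicate 5 highest and FcgRIIB-/- replicate 4 lowest, as for *Postn*. The most abundant of them, *Pdgfrb*, did not pass (-0.14, edgeR adjusted p = 0.137). Of 8 osteoblast markers 3 were lower and 0 higher (median -0.23, sums of 2298 to 3134 CPM in WT and 2248 to 2666 CPM in the libraries labelled FcgRIIB-/-), and *Alpl*, the most abundant, was at 0.11 (edgeR adjusted p = 0.518). Osteocyte markers had 2 of 6 lower and 1 higher (median -0.49, sums of 726 to 1350 CPM in WT and 779 to 1076 CPM in the libraries labelled FcgRIIB-/-), with *Phex* at 0.23 (edgeR adjusted p = 0.338). The 2 lower ones, *Sost* and *Mepe*, had WT means (82.1 and 57.8 CPM) far above their WT medians (13.4 and 11.2 CPM). Their highest WT values were 352 and 245 CPM, and the groups overlapped for *Sost*. Chondrocyte markers had 1 of 7 lower and 0 higher (median 0.12, sums of 765 to 1252 CPM and 1022 to 1402 CPM), with *Col11a2* at 0.36 (edgeR adjusted p = 0.128).

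Dental and muscle markers went the other way from the members. Of 6 odontoblast and ameloblast markers 4 were higher and 0 lower (median 0.76), with *Amelx*, the enamel protein amelogenin, at 1.34 (edgeR adjusted p = 0.00757). Their sum was 12021 to 31062 CPM in WT, lowest in replicate 5, and 34117 to 57122 CPM in the libraries labelled FcgRIIB-/-, highest in replicate 4, the mice in which *Postn* was highest and lowest. Of 9 skeletal muscle markers 5 were higher and 0 lower (median 0.88, sums of 6650 to 15568 CPM and 15719 to 27364 CPM), with *Myh1* at 0.64 (edgeR adjusted p = 0.0660). The 6 endothelial markers had a median of 0.14 and adjusted p from 0.0941 to 0.892 in edgeR, with *Pecam1* at 0.17 (edgeR adjusted p = 0.168). Of 4 tested adipocyte markers 1 was higher, *Fabp4* (1.05, edgeR adjusted p = 0.00200), and 1 was lower.

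Marrow, blood and stratified epithelium markers had the largest median differences of these marker lists. All 8 neutrophil markers were lower (median -3.02), with *S100a9* at -2.44 (edgeR adjusted p = 0.00254), and their sum was 1119 to 3370 CPM in WT, highest in replicate 5, and 138 to 415 CPM in the libraries labelled FcgRIIB-/-. All 6 tested erythroid markers were lower (median -4.05, sums of 657 to 842 CPM and 27.4 to 167 CPM), with *Hba-a1* at -2.77 (edgeR adjusted p = 0.00160). Of 8 stratified epithelium markers 6 were lower and 1 higher (median -4.02), while *Krt14* did not pass (0.24, edgeR adjusted p = 0.320). *Krt14* had the highest average log2 CPM over all mice, but in WT alone *Krt13* and *Krt4*, which were lower in the libraries labelled FcgRIIB-/-, had a higher CPM. The sum of all 8 stratified epithelium markers was 5443 to 19432 CPM in WT, again highest in replicate 5. In the libraries labelled FcgRIIB-/- it was 4358 to 5460 CPM. By WT mean, most of the sum came from *Krt13* (3604 CPM), *Krt4* (2796 CPM), *Krt14* (2270 CPM) and *Krt5* (1618 CPM). When the scaling factors were computed without the neutrophil, erythroid and muscle markers, 6 members were lower and 0 higher, as before. Leaving out so few genes hardly moved the scaling (*Postn* at -1.30883 against -1.30865), so this step could not have changed the calls. Whether the mix of tissues affects them was not tested.

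**Figure D5:**
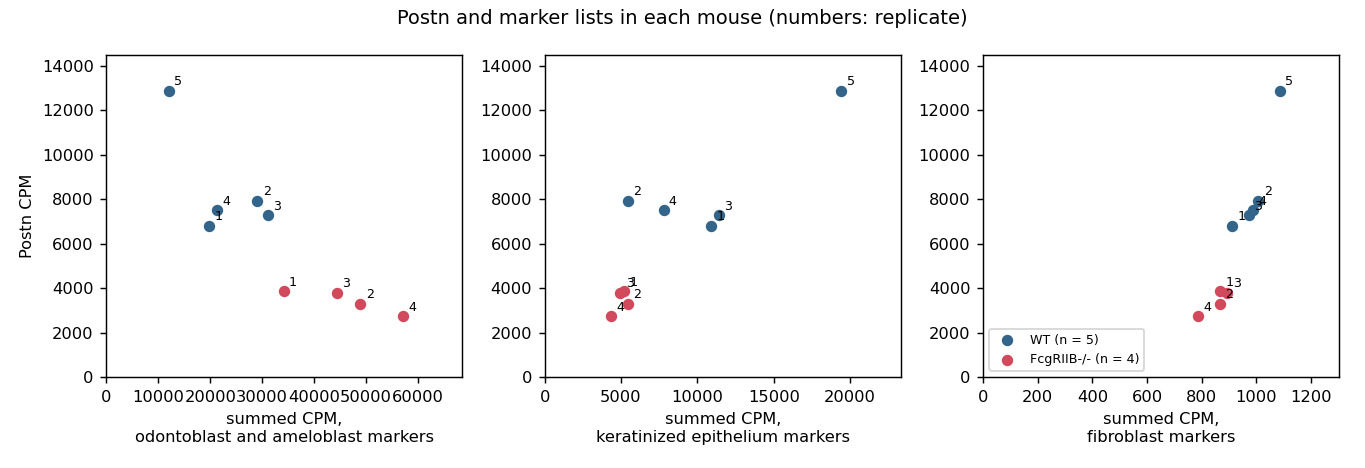
*Postn* level (vertical axis, CPM) against the summed CPM of 3 marker lists (horizontal axes, from 0) in each mouse, with WT in blue (n = 5), libraries labelled FcgRIIB-/- in red (n = 4) and replicate numbers beside the points. The axis named keratinized epithelium holds the stratified epithelium markers of the text. WT replicate 5 has the highest *Postn*, the lowest dental marker sum (12021 CPM) and the highest epithelial sum (19432 CPM), and FcgRIIB-/- replicate 4 has the lowest *Postn* and the highest dental marker sum (57122 CPM).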

How the data were processed

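Mandibular poly(A) RNA of 5 WT mice and 4 mice labelled FcgRIIB-/- was sequenced as directional single-end libraries. The authors trimmed reads with Trim Galore, aligned them to mm10 with HISAT (02.1.0 in the submitters' processing notes) and deposited raw counts per gene from featureCounts, without normalization. The gene annotation, strand setting and treatment of multiply matching reads are not given in the sources used here. Groups and replicate numbers came from the labels, and 1 column of values matching no sample was not used. The labels name no batch. No 2 libraries held identical counts.

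The deposited counts were analysed in R 4.3.3 with edgeR 4.0.16, using filterByExpr (minimum count 10), TMM scaling, the quasi-likelihood test of genotype over all 16329 genes passing the filter, and Benjamini-Hochberg adjustment at 0.05. Standard errors were derived from the F statistic. Single values were compared by two-sided exact permutation over every split of the mice, on log2 CPM with a prior count of 2 or on log2 count ratios with 0.5 added to each count. The test was also run on simulated counts in which few genes changed, equally many up and down. Far more genes differed here, so that run does not check the scaling under such broad differences. Named genes were the members, *Fcgr2b*, genes overlapping a member and the most abundant gene of each marker list. In each pathway list the largest rises and falls that passed were named (up to 2 each). Other genes were named after their values were seen, some by position, *Col1a1* as the most abundant of its list, and further genes of the marker lists. Members and lists were chosen with earlier results of these data known. Alternatives were other scalings, filters, DESeq2 1.42.0, limma voom 3.58.1, a replicate block and leaving out each mouse. Coordinates and promoters are from RefSeq for GRCm38.p6, and transcript lengths from GENCODE.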

Additional observations from a re-analysis of the deposited data

Results flagged for a closer look

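In 3 of 36 groups of values examined, 1 mouse stood apart from the rest of its group by Dixon's criterion at the 95% level, which about 1 group in 20 does by chance. All 3 were WT replicate 5. *Postn* was at 12874 CPM there, against 6813 to 7941 CPM in the other WT mice, and the gap was 0.814 of the whole range. *Aspn* was at 1581 CPM, against 792 to 946 CPM, with a gap of 0.804. The *Postn* to *Bgn* count ratio was 7.53, against 4.45 to 5.24, with a gap of 0.743. Without WT replicate 5, *Postn* and *Aspn* were still lower in the libraries labelled FcgRIIB-/-, with log2 fold changes of -1.09 and -0.85 (edgeR adjusted p = 0.000576 and 0.00323).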

How the results depend on the processing

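Under 19 alternative analyses, between 5 and 7 members were lower and 0 higher. *Postn* (-1.37 to -0.99 on the log2 scale), *Aspn* (-1.22 to -0.72), *Dcn* (-0.50 to -0.32), *Ogn* (-0.999 to -0.74) and *Omd* (-0.79 to -0.44) passed in all 19. *Tnmd* passed in 11 of 19 and *Lum* in 4 of 19 (library totals only, DESeq2, limma voom and without FcgRIIB-/- replicate 3), while *Bgn*, *Scx* and *Fmod* passed in 0. *Fmod* changed sign without scaling beyond library totals (-0.038), and lay between -0.062 and 0.12 with 1 mouse left out, below 0 without FcgRIIB-/- replicate 1 or 2. Scaling by library totals moved the median of all tested genes to -0.07. The numbers of genes called over all tested genes lay between 4050 and 6065 against 5433 in the main analysis. Mice sharing a replicate number share only the number: the correlations of their deviations from the group means were 0.0969, 0.0276, -0.114 and -0.0739. With the replicate block over replicates 1 to 4, 6 members were lower and 0 higher, and 4050 of 16214 genes were called. In that fit 6 collagen genes and 6 receptors and ligands fell, against 10 and 8 in the main analysis. For the ratios, an exact sign-flip test of the 4 shared numbers cannot go below p = 0.125. Leaving out a mouse kept the sign of all 8 ratios but moved 3 of them by more than 1.5 times, namely *Aspn* to *Ogn* (-0.048 without WT replicate 5, -0.25 without WT replicate 2 and -0.098 without FcgRIIB-/- replicate 4, against -0.15), *Scx* to *Tnmd* (0.13 without FcgRIIB-/- replicate 4 and 0.42 without replicate 2, against 0.26) and *Dcn* to *Bgn* (-0.34 without FcgRIIB-/- replicate 3 and -0.12 without replicate 4, against -0.20). Among the members, *Scx* and *Tnmd* rest on the fewest counts. The cause of these changes was not tested.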
